A study of Bos taurus with 16 samples.

Results

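The genes described here are 10 members of the Hippo pathway, namely the coactivators YAP1 and WWTR1 (TAZ), the DNA-binding partners TEAD1, TEAD3 and TEAD4, the kinases LATS1 and LATS2, and the junction proteins NF2, AMOT and AMOTL2. They were chosen by gene symbol, and each of the 10 was found once in each of the 3 deposited expression tables, which list 38959, 37429 and 28303 genes. Bovine day 8 blastocysts, produced in vitro from slaughterhouse oocytes and frozen semen, were sequenced 1 embryo per library after culture with or without LY2955303 (LY), an inhibitor of the retinoic acid receptor RARγ. The first blastocyst table held 3 DMSO embryos, cultured in IVC medium with LIF, FGF2, IGF1 and the DMSO vehicle, and 3 LY10 embryos, cultured in the same supplemented medium with 10 μM LY from the 2-cell stage. The second held 2 embryos each of cell2_LY, exposed to LY from the 2-cell stage, cell16_LY, exposed from the 16-cell stage, and LY_DMSO, whose label names LY2955303 and DMSO together and which was taken as their vehicle control; no dose of LY is given in the labels of this table. The third table held bovine embryonic stem cells (bESCs) grown on inactivated mouse fibroblast feeders in TIFX medium, which carries inhibitors of MEK, tankyrase, DOT1L, FGF receptor and GSK3 with forskolin and LIF, as 2 bESC_tifx libraries and 2 bESC_LY libraries with LY added. All samples were labeled wild type. A blastocyst library mixes the RNA of trophectoderm, epiblast and hypoblast, so fewer cells of a type and less RNA per cell cannot be told apart.

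The Hippo pathway passes cell contact and polarity to the nucleus. When NF2 and the angiomotins AMOT and AMOTL2 hold the LATS kinases active at cell junctions, LATS1 and LATS2 phosphorylate YAP1 and WWTR1, which then stay in the cytoplasm. When outer, polarized cells keep LATS activity low, YAP1 and WWTR1 enter the nucleus, bind a TEAD protein and switch on genes such as CDX2 and GATA3, which mark trophectoderm, the outer layer of the blastocyst. Inner cells with active LATS keep pluripotency genes such as SOX2. This control acts on protein phosphorylation and location, which RNA levels do not show.

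Reads on genes were between 7905768 and 17343140 in the 12 blastocyst libraries and between 29055323 and 31230432 in the 4 bESC libraries. Levels are given as FPKM, the fragments on a gene scaled to its length and to library size. Trophectoderm markers summed to between 2845 and 10304 FPKM in the blastocysts, epiblast markers to between 220 and 793 FPKM and hypoblast markers to between 186 and 499 FPKM. In bESCs POU5F1, the pluripotency factor, lay between 967 and 1117 FPKM while GATA3 did not exceed 0.537 FPKM. Cumulus cell markers, which would mark cells left from the oocyte's surroundings, summed to between 3.47 and 8.09 FPKM in the blastocysts, and PTX3 was at 0 in 8 of the 12 libraries. Another of them, STAR, was read in each of the 12, at 0.240 to 5.57 FPKM. Between 1 and 4 of the 10 cumulus markers were above 1 FPKM in a blastocyst. Reads of 4 Y-linked genes were present in DMSO replicate 3, LY10 replicate 1, LY_DMSO replicate 1, both cell2_LY embryos and cell16_LY replicate 2. Of these, LY_DMSO replicate 1 and cell2_LY replicate 1 also had 2438 and 3133 normalized counts of XIST, the X inactivation RNA of female cells, while the other 4 had between 25.2 and 372. The part of these 2 libraries in the results was not tested, and calls that were lost without either of them are named below. The cell2_LY replicate 1 library also stood apart in that the library size behind its FPKM was 1.23 times its reads on genes, against 0.949 to 1.07 in the other blastocysts.

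YAP1 was the most abundant of the 10 transcripts per length in each of the 7 groups. In DMSO embryos it was at 30.7, 32.5 and 40.5 FPKM, followed by WWTR1 at 21.5, 21.4 and 27.8 FPKM. These 2 coactivators held the first and second place in each of the 5 blastocyst groups, and their ranges did not overlap with each other or with the next gene. AMOT came next in DMSO embryos at 20.6, 11.8 and 6.81 FPKM, the widest spread of the 10 there by SD (13.1 ± 7.0 FPKM, SD, n = 3). TEAD3, NF2, TEAD4, LATS1 and AMOTL2 followed with means between 5.41 and 2.19 FPKM, and each overlapped with its neighbor in the order. TEAD1 lay at 1.39, 1.43 and 1.52 FPKM and LATS2 was lowest at 0.844, 0.903 and 0.723 FPKM. In LY_DMSO embryos the order after WWTR1 was TEAD4, NF2, AMOT and TEAD3, whose ranges each overlapped with the next, then LATS1, AMOTL2, TEAD1 and LATS2, whose ranges did not. The fewest reads on any member in a blastocyst library were 40, on AMOTL2, and YAP1 had at least 1515 reads in each of them.

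**Figure D1:**
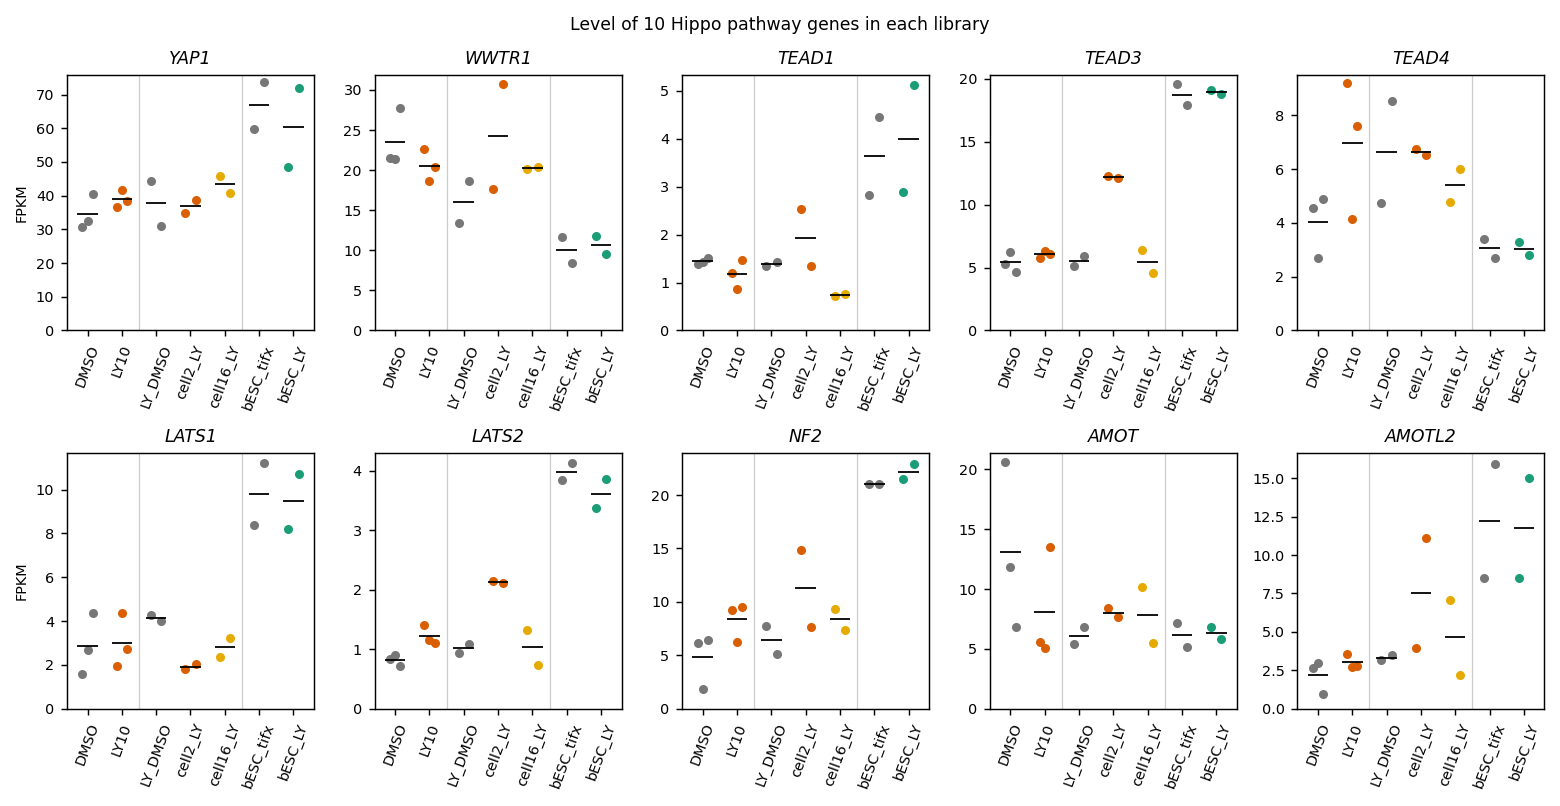
Level of each of the 10 genes in FPKM (y axis from 0, scale differs between panels) in the 7 groups on the x axis, with 1 point per library, a bar at the group mean and gray lines between the 3 separately normalized tables. The 2 cell2_LY embryos stand at 12.3 and 12.1 FPKM of TEAD3 and at 2.14 and 2.11 FPKM of LATS2, above all other blastocysts for both genes.

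The order within a group rested partly on the gene length that the level was divided by. The blastocyst tables give TEAD1 a length of 50592 bases, against 3941 bases for bESCs, a ratio of 12.8. The ratio was 3.74 for YAP1, 3.53 for TEAD4, 2.75 for LATS2 and 2.64 for WWTR1, and between 0.741 and 1.18 for the other 5 genes. Divided by the bESC lengths instead, the DMSO mean of TEAD1 became 18.6 FPKM, above TEAD4 at 14.3 FPKM and TEAD3 at 5.60 FPKM, where on the deposited lengths TEAD1 was the lowest of the 3. On the bESC lengths YAP1 was still first at 129 FPKM and WWTR1 second at 62.1 FPKM. The reads were still those counted on the gene models of the blastocyst tables. These values therefore show the weight of the length and are not levels under the bESC annotation. Differences between embryos of one table do not involve the length. By the positions in the blastocyst tables, 98.8% of which matched RefSeq's ARS-UCD2.0 gene models where the ID was shared, TEAD1 lies at chr15:39740865-40015346 and YAP1 at chr15:6499364-6634778, both on the minus strand. LATS1 lies at chr9:86860562-86897588 on the minus strand, LATS2 at chr12:35649270-35700350 on the plus strand and TEAD3 at chr23:9433297-9456466 on the minus strand. AMOT is X-linked, at chrX:61245471-61313882. TEAD1, TEAD4 and LATS1 each overlap 1 short annotated gene in these tables, and strand use in counting is not given in the sources used here, so reads shared with those genes cannot be told apart.

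**Figure D2:**
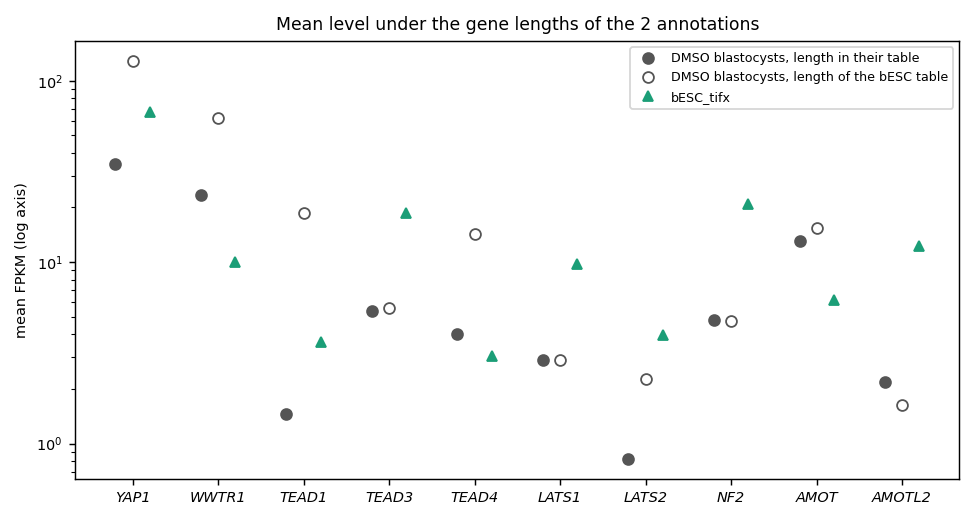
Mean FPKM on a log axis of the 10 genes in DMSO blastocysts under the gene length of their own table (filled circles) and under the length of the bESC table (open circles), with bESC_tifx means as triangles. TEAD1 moves from 1.45 to 18.6 FPKM with the length, while TEAD3, LATS1 and NF2 hardly move. Filled and open circles rest on the same reads, counted on the blastocyst gene models.

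In the first experiment, which asked what 10 μM LY from the 2-cell stage changes in blastocysts, none of the 10 genes passed the study's threshold of an unadjusted p under 0.05 with an absolute log2 fold change above 1 (limma on log2 normalized counts), where 14.7% of the 14249 genes tested did. The count at an unadjusted p under 0.05 alone was also 0, with limma and with voom, against 22.9% of all genes with limma. The 10 fitted log2 fold changes lay between -0.70 and 0.97, and their 95% intervals, each of which included 0, reached from -1.79 to 2.04, a span that holds changes past the threshold in both directions. The median over the 10 was 0.17 on the log2 scale, beside -0.05 over all genes tested.

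LATS2, the kinase that YAP1 itself switches on in many cells, was the member whose groups did not overlap in this experiment, with 0.844, 0.903 and 0.723 FPKM in DMSO and 1.41, 1.16 and 1.10 FPKM in LY10. The lowest LY10 embryo was above the highest DMSO embryo, as was the case in one direction or the other for 28.1% of all genes tested. The log2 fold change of LATS2 was 0.56 ± 0.33 (SE, limma, unadjusted p = 0.123, adjusted p = 0.335). NF2, the merlin scaffold that brings LATS to the membrane, was at 6.15, 1.87 and 6.43 FPKM in DMSO and 9.25, 6.29 and 9.55 FPKM in LY10. Here 1 DMSO embryo was low and the groups overlapped, with a log2 fold change of 0.97 ± 0.47 (SE, limma, unadjusted p = 0.0727, adjusted p = 0.260). TEAD4, the TEAD protein tied most closely to trophectoderm in mouse embryos, was at 4.55, 2.68 and 4.89 FPKM in DMSO and 9.19, 4.13 and 7.59 FPKM in LY10. Of the LY10 values, 2 exceeded each DMSO value and 1 did not, and the log2 fold change was 0.76 ± 0.37 (SE, limma, unadjusted p = 0.0746, adjusted p = 0.263). AMOT, the angiomotin that activates LATS in inner cells, was at 20.6, 11.8 and 6.81 FPKM in DMSO and at 5.61, 5.09 and 13.5 FPKM in LY10, with overlap. YAP1 (30.7 to 40.5 FPKM in DMSO, 36.7 to 41.7 in LY10), WWTR1 (21.4 to 27.8 and 18.6 to 22.6), TEAD1 (1.39 to 1.52 and 0.861 to 1.48), TEAD3 (4.67 to 6.24 and 5.74 to 6.34), LATS1 (1.58 to 4.37 and 1.97 to 4.36) and AMOTL2 (0.960 to 2.99 and 2.72 to 3.59) overlapped as well.

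The count of 0 in the first experiment depended on single embryos. Without DMSO replicate 3, NF2 at 1.27 and AMOT at -1.10 on the log2 scale passed the threshold. NF2 also passed without DMSO replicate 1 (1.24), TEAD4 without LY10 replicate 2 (1.09) and AMOT without LY10 replicate 3 (-1.15). Fibroblast markers, of which the 9 listed were all in the table, summed to 24.5, 24.6 and 91.2 FPKM in DMSO and to 6.10, 8.60 and 11.7 FPKM in LY10; POSTN was at 0 in DMSO replicates 1 and 2, and COL3A1, PDGFRB, POSTN and TWIST2 were at 0 in LY10 replicates 1 and 3. The part of this difference in the values above was not tested.

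In the second experiment, cell2_LY embryos had more TEAD3 and LATS2 and less LATS1 than LY_DMSO embryos. These 3 of the 10 genes passed the threshold, a share to be set beside 17.0% of the 14529 genes tested, and by the same fit 8.71% of all genes rose and 8.34% fell. None of the 10 passed after Benjamini-Hochberg adjustment over all genes, with limma or with voom, as 0.0138% of all genes did with limma. Both tools gave 3 members at an unadjusted p under 0.05, beside 24.6% of all genes with limma. The median log2 fold change over the 10 was 0.49, beside 0.00 over all genes, and 5 of the 10 had groups that did not overlap, against 53.7% of all genes.

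TEAD3 stood at 5.15 and 5.92 FPKM in LY_DMSO and at 12.3 and 12.1 FPKM in cell2_LY. Both exposed embryos were about equally high, and the next blastocyst of either table, cell16_LY replicate 1, reached 6.41 FPKM. The log2 fold change was 1.14 ± 0.31 (SE), a 2.20-fold rise (limma, unadjusted p = 0.00595, adjusted p = 0.0941), and the call held with each library left out in turn and under each of the other settings tried, which are named in the methods. LATS1 stood at 4.29 and 4.01 FPKM in LY_DMSO and at 1.81 and 2.03 FPKM in cell2_LY. Both exposed embryos were below both controls, although the DMSO and LY10 embryos of the first experiment, at 1.58 to 4.37 FPKM, spanned nearly the same range. Its log2 fold change was -1.11 ± 0.34 (SE), 2.16-fold lower (limma, unadjusted p = 0.00988, adjusted p = 0.107). It kept the threshold with each library left out but not with libraries scaled by their reads on genes, where the change was -0.88 and NF2 passed in its place at 1.00.

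LATS2 stood at 0.943 and 1.09 FPKM in LY_DMSO and at 2.14 and 2.11 FPKM in cell2_LY. The exposed embryos were above all other blastocysts, with a log2 fold change of 1.06 ± 0.40 (SE), a 2.08-fold rise (limma, unadjusted p = 0.0282, adjusted p = 0.159). This call did not survive the loss of any single library: without LY_DMSO replicate 1 or 2 the unadjusted limma p was 0.0953 or 0.0504, and without cell2_LY replicate 1 or 2 it was 0.0746 or 0.0711, with log2 fold changes between 0.95 and 1.16.

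The remaining 7 genes did not pass. NF2 was at 7.74 and 5.08 FPKM in LY_DMSO and 14.9 and 7.68 FPKM in cell2_LY, where 1 exposed embryo was high and the other lay within the controls (log2 fold change 0.77 ± 0.38, SE, limma, unadjusted p = 0.0781, adjusted p = 0.255). It passed the threshold without LY_DMSO replicate 1 (1.07) and without cell2_LY replicate 2 (1.25). AMOTL2, an angiomotin that is also a YAP1 target, was at 3.18 and 3.47 FPKM in LY_DMSO and 3.93 and 11.1 FPKM in cell2_LY, so its difference of 0.99 ± 0.62 (SE, limma, unadjusted p = 0.146, adjusted p = 0.351) rested on 1 embryo: it was 0.24 without cell2_LY replicate 2, while without cell2_LY replicate 1 it was 1.74 and passed. WWTR1 was at 13.4 and 18.7 FPKM in LY_DMSO and 17.7 and 30.8 FPKM in cell2_LY, with overlap (0.56 ± 0.33, SE, limma, unadjusted p = 0.125, adjusted p = 0.323). AMOT was at 5.42 and 6.81 FPKM in LY_DMSO and 8.41 and 7.65 FPKM in cell2_LY, without overlap and without a call. YAP1 (44.5 and 31.1 against 34.8 and 38.8 FPKM), TEAD1 (1.34 and 1.43 against 2.54 and 1.34) and TEAD4 (4.75 and 8.54 against 6.75 and 6.54) overlapped.

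**Figure D3:**
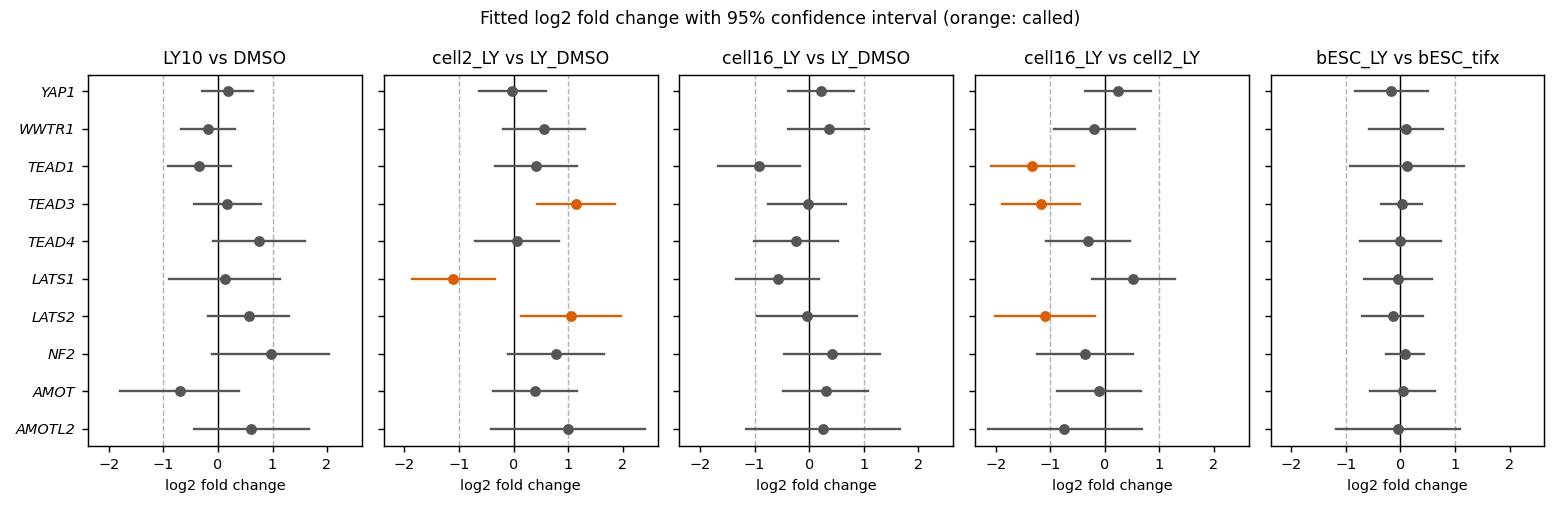
Fitted log2 fold change (x axis) of the 10 genes in 5 comparisons, with 95% confidence intervals from limma as lines; dashed lines mark the threshold of 1 and orange marks the genes that passed it with an unadjusted p under 0.05. In cell2_LY against LY_DMSO, TEAD3 (1.14) and LATS2 (1.06) lie to the right and LATS1 (-1.11) to the left, while the bESC intervals center near 0.

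The ratio of LATS1 to LATS2 moved with their opposite changes. On the deposited lengths, LATS1 exceeded LATS2 in FPKM by a ratio of 4.55 and 3.67 in the LY_DMSO embryos, while the ratio was 0.847 and 0.964 in cell2_LY embryos. The ratio was below 1 in these 2 of the 16 libraries. It was 1.80 and 4.36 in cell16_LY, 1.88, 2.94 and 6.04 in DMSO, 1.40, 3.77 and 2.48 in LY10, and between 2.18 and 2.78 in bESCs. Which libraries fall below 1 depends on the length of LATS2, which the blastocyst tables give as 8378 bases and the bESC table as 3048. With the bESC lengths, a choice made after seeing the data, the ratio was below 1 in 6 of the 16 libraries, at 0.308 and 0.351 in cell2_LY, 0.683 in DMSO replicate 1, 0.511 and 0.902 in LY10 replicates 1 and 3, and 0.654 in cell16_LY replicate 1, while LY_DMSO stood at 1.66 and 1.34. The blastocyst reads behind these ratios were still those counted on the longer LATS2 model. The change of the ratio between embryos of a table does not involve the length. The ratio of TEAD3 to TEAD4 was 1.08 and 0.694 in LY_DMSO and 1.82 and 1.85 in cell2_LY, but DMSO replicate 2 of the first experiment exceeded both at 2.33.

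**Figure D4:**
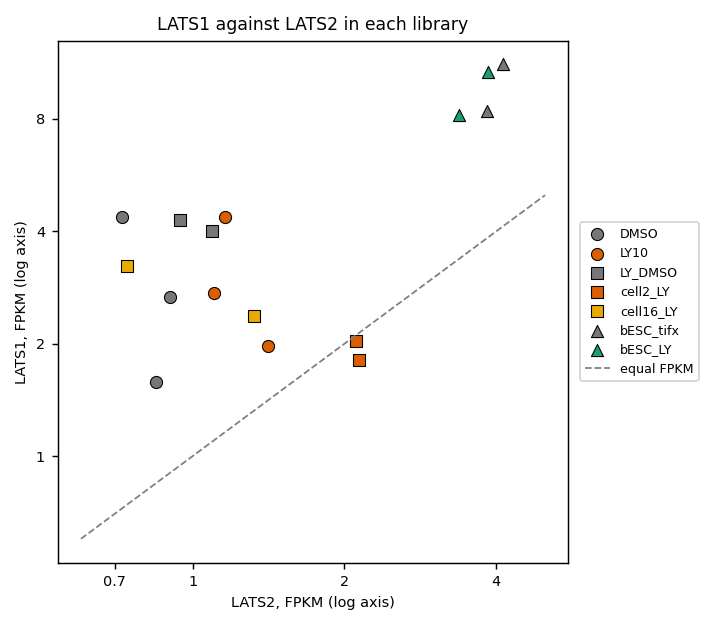
LATS1 (y axis) against LATS2 (x axis), both in FPKM on log axes, with 1 point per library and the dashed line where both are equal. The 2 cell2_LY embryos lie just under the line, at ratios of 0.847 and 0.964, and the other 14 libraries lie above it on the deposited lengths. With the bESC lengths and unchanged reads, 6 of the 16 libraries would lie under it.

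LY from the 16-cell stage moved none of the 10 genes past the threshold against LY_DMSO, where 5.22% of all genes tested passed. This comparison used the same LY_DMSO embryos as that of cell2_LY. At an unadjusted p under 0.05 there was 1 member, with limma and with voom, beside 7.62% of all genes with limma, and it was TEAD1. It stood at 1.34 and 1.43 FPKM in LY_DMSO and at 0.712 and 0.751 FPKM in cell16_LY, which were the lowest of the 12 blastocysts, with a log2 fold change of -0.92 ± 0.33 (SE, limma, unadjusted p = 0.0234, adjusted p = 0.613). LATS1 was at 2.37 and 3.23 FPKM in cell16_LY, below both controls and above both cell2_LY embryos, with a log2 fold change of -0.58 ± 0.34 (SE, limma, unadjusted p = 0.118, adjusted p = 0.733). LATS2 at 1.32 and 0.740 FPKM and TEAD3 at 6.41 and 4.54 FPKM lay on both sides of the controls. WWTR1 was at 20.2 and 20.4 FPKM, above both controls, so that 3 of the 10 genes had groups without overlap, against 42.9% of all genes. YAP1 (45.9 and 40.9 FPKM), TEAD4 (4.78 and 6.0), NF2 (9.36 and 7.41), AMOT (10.2 and 5.47) and AMOTL2 (7.10 and 2.22) overlapped with the controls. The 95% intervals of the 10 log2 fold changes reached from -1.68 to 1.67.

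Set directly against each other, embryos exposed from the 16-cell stage had less TEAD1, TEAD3 and LATS2 than embryos exposed from the 2-cell stage. These 3 genes passed the threshold, beside 11.3% of all genes tested and 5.77% that passed as lower. With limma and with voom they were also the members at an unadjusted p under 0.05, beside 17.9% of all genes with limma. TEAD1 was at 2.54 and 1.34 FPKM in cell2_LY, with a log2 fold change of -1.33 ± 0.33 (SE, limma, unadjusted p = 0.00346, adjusted p = 0.193), which did not pass without cell2_LY replicate 1 (-0.87) or on log2(FPKM + 1) (-0.73). TEAD3 had a log2 fold change of -1.17 ± 0.31 (SE, limma, unadjusted p = 0.00507, adjusted p = 0.193) and did not pass without cell16_LY replicate 2 (-0.92). LATS2 had a log2 fold change of -1.10 ± 0.40 (SE, limma, unadjusted p = 0.0241, adjusted p = 0.227) and did not pass without cell16_LY replicate 2 (-0.69), cell2_LY replicate 1 (-1.09) or cell2_LY replicate 2 (-1.11), on log2(FPKM + 1) (-0.64) or after quantile normalization (-0.99). Without cell16_LY replicate 1, AMOTL2 passed as well, at -1.57. YAP1 was higher in both cell16_LY embryos than in both cell2_LY embryos and did not pass. Groups without overlap were found for 6 of the 10 genes, and for 54.5% of all genes tested. The cell2_LY embryos here were those already compared with LY_DMSO, so the 2 comparisons are not independent. Against LY_DMSO, the log2 fold changes in cell16_LY were -0.92 for TEAD1, -0.03 for TEAD3 and -0.04 for LATS2.

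Exposure from the 2-cell stage was given in both experiments, and a fit over the 10 embryos concerned, with the table as a block, called none of the members, where 6.76% of the 13029 genes tested passed. LATS2 was higher in each LY embryo than in each control embryo of its own table in both experiments, as were 2.63% of all genes. Its joint log2 fold change was 0.76 ± 0.25 (SE) with a 95% interval from 0.21 to 1.31 (limma, unadjusted p = 0.0108, adjusted p = 0.211). NF2 at 0.89 ± 0.36 (SE, limma, unadjusted p = 0.0272, adjusted p = 0.254) and TEAD3 at 0.56 ± 0.25 (SE, limma, unadjusted p = 0.0429, adjusted p = 0.292) were the other members with an unadjusted p under 0.05, a count of 3 with limma and with voom beside 16.4% of all genes with limma. NF2 passed the threshold without DMSO replicate 1 (1.03), DMSO replicate 3 (1.04) or cell2_LY replicate 2 (1.05). AMOTL2 was at 0.76 ± 0.37 (SE, limma, unadjusted p = 0.0622, adjusted p = 0.330) and TEAD4 at 0.48 ± 0.30 (SE, limma, unadjusted p = 0.137, adjusted p = 0.443).

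Before adjustment only, and below the fold threshold, TEAD3 differed between the experiments in its LY change. In the first it was at 5.32, 6.24 and 4.67 FPKM in DMSO and 5.74, 6.34 and 6.05 FPKM in LY10, with overlap, against the 2.20-fold rise in the second. The difference of the 2 changes was 0.97 ± 0.39 on the log2 scale (SE, limma, unadjusted p = 0.0285, adjusted p = 0.159). For LATS1 it was -1.23 ± 0.64 (SE, limma, unadjusted p = 0.0810, adjusted p = 0.273), so that the fall of LATS1 in cell2_LY is not shown to differ from its change in the first experiment. Of all genes tested, 23.4% had an unadjusted p under 0.05 for this difference, and of the 10 members 1 did, TEAD3.

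Other genes of the pathway were counted by lists. Of the 5 further TEAD and VGLL genes, 4 were tested in the blastocysts, of which 2 rose in cell2_LY, 0 in LY10 and 1 in cell16_LY. The shares of all genes called in either direction, against which this and the following list counts stand, were 17.0% in cell2_LY, 14.7% in LY10 and 5.22% in cell16_LY. TEAD2, the TEAD family member outside the 10, was at 2.65 and 2.38 FPKM in LY_DMSO, 9.35 and 5.28 FPKM in cell2_LY and 6.57 and 4.59 FPKM in cell16_LY. Both LY groups were above both controls, with log2 fold changes of 1.47 ± 0.42 (SE, limma, unadjusted p = 0.00694, adjusted p = 0.0983) in cell2_LY and 1.12 ± 0.42 (SE, limma, unadjusted p = 0.0261, adjusted p = 0.620) in cell16_LY, the second lost without LY_DMSO replicate 1 or 2 or cell16_LY replicate 1. In the first experiment TEAD2 was at 2.22, 1.78 and 1.87 FPKM in DMSO and 1.41, 4.26 and 1.39 FPKM in LY10, with overlap. VGLL3, a TEAD cofactor, was called higher in cell2_LY at 0.610 and 0.909 FPKM against 0.132 and 0.478 FPKM, and lost the call without LY_DMSO replicate 1 or either cell2_LY replicate. Of the 13 kinase cassette genes outside the 10, 1 was called in cell2_LY, a share below that of all genes, and 0 in LY10 or cell16_LY. It was TAOK2, a kinase upstream of LATS, at 1.72 and 0.869 FPKM against 0.464 and 0.592 FPKM, and it lost the call without either LY_DMSO replicate or cell2_LY replicate 1. At an unadjusted limma p under 0.05 without the fold threshold, 6 of the 13 stood in cell2_LY, beside 24.6% of all genes. The same count was 2 in LY10 and 0 in cell16_LY, beside 22.9% and 7.62%. In cell2_LY, 7 of the 13 changes were above 0 and 6 below, and 9 had groups without overlap, against 53.7% of all genes.

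Junction and polarity genes feed into LATS through cell contact. Of 20 outside the 10 members, 2 rose and 1 fell in LY10, 3 rose and 2 fell in cell2_LY, and 1 fell in cell16_LY, beside 14.7%, 17.0% and 5.22% of all genes called. In LY10 and cell16_LY these shares were near those of all genes. The fall in LY10 was that of AMOTL1, the other angiomotin, at 0.790, 1.36 and 0.169 FPKM in DMSO and 0.0904, 0.119 and 0.143 FPKM in LY10, which kept the call with DMSO replicate 3 left out and lost it without any other library. AMOTL1, as well as CDH1 and LLGL1 in cell2_LY and COL4A2 and DCN in LY10 below, falls outside the naming rule and was chosen after its values were seen. PRKCZ, an atypical protein kinase C of the apical domain, was at 8.73, 7.55 and 11.5 FPKM in DMSO and 32.2, 29.1 and 25.7 FPKM in LY10, with a log2 fold change of 1.66 ± 0.25 (SE, limma, unadjusted p = 1.21e-04, adjusted p = 0.0711). It was also above both controls in cell2_LY, at 32.1 and 22.2 FPKM against 18.0 and 12.7 FPKM, and the joint fit over both tables gave 1.33 ± 0.25 (SE, limma, unadjusted p = 1.37e-04, adjusted p = 0.176). PRKCI, its close relative, fell in cell2_LY from 46.1 and 67.6 FPKM to 24.5 and 22.4 FPKM, a log2 fold change of -1.25 ± 0.27 (SE, limma, unadjusted p = 0.00141, adjusted p = 0.0754) that did not pass without LY_DMSO replicate 2 (-0.98) or after quantile normalization (-0.88). It was also lower in cell16_LY, at 27.2 and 28.0 FPKM, a call lost without LY_DMSO replicate 2 or cell16_LY replicate 1.

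CDH1, the cadherin of epithelial junctions, was at 13.9, 15.6 and 26.4 FPKM in DMSO and 57.7, 131 and 41.7 FPKM in LY10, a log2 fold change of 1.93 ± 0.43 (SE, limma, unadjusted p = 0.00165, adjusted p = 0.0786). In the second experiment it was at 118 and 112 FPKM in LY_DMSO and 35.3 and 73.9 FPKM in cell2_LY, a fall of 1.18 (-1.18 ± 0.35, SE, limma, unadjusted p = 0.00920, adjusted p = 0.105) that was -0.64 without cell2_LY replicate 1 and no longer passed. SCRIB and LLGL2, which belong to the basolateral polarity complex, rose in cell2_LY. SCRIB was at 0.734 and 0.289 FPKM in LY_DMSO and 3.39 and 2.05 FPKM in cell2_LY (log2 fold change 2.48 ± 0.59, SE, limma, unadjusted p = 0.00263, adjusted p = 0.0806). LLGL2 was at 4.52 and 2.83 FPKM in LY_DMSO and 11.3 and 7.86 FPKM in cell2_LY (1.39 ± 0.36, SE, limma, unadjusted p = 0.00421, adjusted p = 0.0867). LLGL1 was at 6.58 and 4.54 FPKM in LY_DMSO and 12.5 and 10.1 FPKM in cell2_LY, a call lost without LY_DMSO replicate 2 or cell2_LY replicate 1.

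Known YAP1 and WWTR1 target genes were called no more often than all genes. Of 15 tested targets outside the 10 members, 1 rose and 1 fell in LY10 and likewise in cell2_LY, with 0 called in cell16_LY, beside 14.7%, 17.0% and 5.22% of all genes, and the median log2 fold changes were 0.18, 0.44 and 0.16, beside -0.05, 0.00 and -0.01 over all genes. In LY10, IGFBP3, which binds insulin-like growth factors, rose from 4.34, 1.73 and 3.92 FPKM to 6.47, 10.9 and 7.34 FPKM, a call lost without DMSO replicate 2. CRIM1 fell from 5.68, 8.92 and 4.78 FPKM to 2.77, 1.90 and 2.90 FPKM, with a log2 fold change of -1.32 ± 0.33 (SE, limma, unadjusted p = 0.00327, adjusted p = 0.0861). In cell2_LY, DOCK5 was called higher (1.37 and 1.03 against 0.468 and 0.255 FPKM) and the growth factor gene TGFB2 lower (0.203 and 0.356 against 0.640 and 1.21 FPKM), and both lost the call without LY_DMSO replicate 2 or cell2_LY replicate 1.

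Trophectoderm markers include known targets of TEAD4 in mouse embryos. Of 10 trophectoderm markers tested in cell2_LY, 4 rose and 0 fell, where 8.71% of all genes rose and 8.34% fell, with a median log2 fold change of 1.31 beside 0.00 over all genes. CDX2, the trophectoderm homeobox factor, was at 0.410 and 0.591 FPKM in LY_DMSO and 3.87 and 3.49 FPKM in cell2_LY, a log2 fold change of 2.78 ± 0.67 (SE, limma, unadjusted p = 0.00284, adjusted p = 0.0811). The LY_DMSO values rest on few reads, 9 and 13, against 72 in each cell2_LY embryo. GATA2, a trophoblast factor, was at 18.2 and 9.71 FPKM in LY_DMSO and 57.3 and 48.9 FPKM in cell2_LY (1.99 ± 0.34, SE, limma, unadjusted p = 3.02e-04, adjusted p = 0.0711). ELF3 was at 2.84 and 1.71 FPKM in LY_DMSO and 23.8 and 8.57 FPKM in cell2_LY (2.68 ± 0.52, SE, limma, unadjusted p = 7.41e-04, adjusted p = 0.0711). KRT19, a trophectoderm keratin, was at 361 and 91.2 FPKM in LY_DMSO and 621 and 692 FPKM in cell2_LY, a call lost without LY_DMSO replicate 2 or cell2_LY replicate 2. GATA3 was at 19.1 and 23.5 FPKM in LY_DMSO and 36.0 and 46.6 FPKM in cell2_LY, which with a log2 fold change of 0.95 ± 0.28 (SE, limma, unadjusted p = 0.00785, adjusted p = 0.102) missed the fold threshold. The calls of CDX2, GATA2, ELF3, SCRIB and LLGL2 in cell2_LY were kept with each library left out in turn. The summed trophectoderm markers were at 5282 and 4242 FPKM in LY_DMSO and 5726 and 8347 FPKM in cell2_LY, and their part in the TEAD3, LATS1 and LATS2 values was not tested.

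In the first experiment, CDX2 was at 1.31, 0.210 and 3.08 FPKM in DMSO and 7.68, 3.02 and 3.19 FPKM in LY10, with overlap (log2 fold change 2.0 ± 0.88, SE, limma, unadjusted p = 0.0506, adjusted p = 0.219). It passed with a pseudocount of 5, no minimum, log2(FPKM + 1), quantile normalization or scaling by reads on genes, at unadjusted limma p between 0.0396 and 0.0498, and not with voom (0.0514). The change was 1.03 without DMSO replicate 2, whose 3 reads on CDX2 are the limit for a count of 0. Without DMSO replicate 3 the change of CDX2 was 2.78 and passed. The joint fit over both tables called it at 2.31 ± 0.62 (SE, limma, unadjusted p = 0.00277, adjusted p = 0.191). GATA3 was at 64.5, 45.6 and 74.6 FPKM in DMSO and 56.7, 33.5 and 40.7 FPKM in LY10, with overlap (-0.50 ± 0.28, SE, limma, unadjusted p = 0.104, adjusted p = 0.308). The joint fit did not call GATA3, at 0.08 ± 0.30 (SE, limma, unadjusted p = 0.793, adjusted p = 0.919). ELF3 fell in LY10, from 4.92, 6.30 and 5.31 FPKM to 1.32, 1.25 and 3.98 FPKM, and was the 1 trophectoderm marker of 10 called there. In cell16_LY, KRT19 was the 1 trophectoderm marker of 10 called, as higher. CDX2 was there at 1.14 and 0.860 FPKM and GATA2 at 15.3 and 12.4 FPKM, and GATA2 was lower than in cell2_LY by -1.94 ± 0.34 on the log2 scale (SE, limma, unadjusted p = 3.61e-04, adjusted p = 0.186).

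SOX2, POU5F1 and NANOG, genes of the inner cell mass, were not called in cell2_LY by limma. SOX2 was at 3.25 and 1.43 FPKM in LY_DMSO and 2.95 and 1.62 FPKM in cell2_LY, and POU5F1 at 395 and 240 FPKM and 364 and 293 FPKM. NANOG was at 49.6 and 31.6 FPKM in LY_DMSO and 33.3 and 1.68 FPKM in cell2_LY, where 1 embryo was very low (log2 fold change -2.39 ± 1.10, SE, limma, unadjusted p = 0.0589, adjusted p = 0.220). NANOG was called with voom (-2.46, unadjusted p = 0.0344), and its change was -4.53, a call, without cell2_LY replicate 1 and -0.25 without cell2_LY replicate 2. GATA6, a hypoblast factor, was at 58.6 and 61.2 FPKM in LY_DMSO and 88.5 and 91.7 FPKM in cell2_LY (0.59 ± 0.26, SE, limma, unadjusted p = 0.0545, adjusted p = 0.212). In LY10, POU5F1 rose from 246, 184 and 164 FPKM to 481, 611 and 328 FPKM (1.23 ± 0.28, SE, limma, unadjusted p = 0.00180, adjusted p = 0.0786), while SOX2 overlapped. NANOG was at 14.7, 22.5 and 2.91 FPKM in DMSO and 10.7, 103 and 24.5 FPKM in LY10, with overlap (1.60 ± 0.91, SE, limma, unadjusted p = 0.114, adjusted p = 0.323). Its change was 0.71 without LY10 replicate 2 and 2.34, a call, without LY10 replicate 1. The joint fit gave NANOG 0.00 ± 0.98 (SE, limma, unadjusted p = 0.997, adjusted p = 0.999). Among 10 epiblast markers tested, 1 rose and 1 fell (KLF4) in LY10, 1 fell (KLF17, lost without LY_DMSO replicate 1 or cell2_LY replicate 2) in cell2_LY and 0 were called in cell16_LY, beside 14.7%, 17.0% and 5.22% of all genes, so that these shares were near or below the background. Of 9 hypoblast markers, 3 rose (PDGFRA, HNF4A and COL4A2) and 1 fell (LAMB1, lost without DMSO replicate 1 or 2 or LY10 replicate 1 or 3) in LY10, 1 fell (PDGFRA, lost without LY_DMSO replicate 1 or cell2_LY replicate 2) in cell2_LY and 0 were called in cell16_LY, with the same shares of all genes beside them. GATA6 was at 107, 91.3 and 64.8 FPKM in DMSO and 57.3, 46.2 and 52.6 FPKM in LY10, without overlap and below the fold threshold (-0.73 ± 0.24, SE, limma, unadjusted p = 0.0150, adjusted p = 0.132). Fewer of the markers of other cells were tested: 5 cumulus markers in LY10, 4 in cell2_LY and cell16_LY, and 5 fibroblast markers in each. BMPR1B (cumulus), COL1A2 and DCN (fibroblast) fell in LY10 and STAR (cumulus) rose in cell2_LY, with 0 called in cell16_LY. All 5 fibroblast changes in LY10 were below 0, with a median of -1.68 beside -0.05 over all genes. Of the cumulus changes there, 2 were above 0 and 3 below. BMPR1B was low, at means of 0.0179 FPKM in LY10 and 0.178 FPKM in DMSO, and lost the call with voom. The call of STAR was lost without LY_DMSO replicate 2 or either cell2_LY replicate, that of COL1A2 without DMSO replicate 2 or LY10 replicate 2, and that of DCN without DMSO replicate 2.

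**Figure D5:**
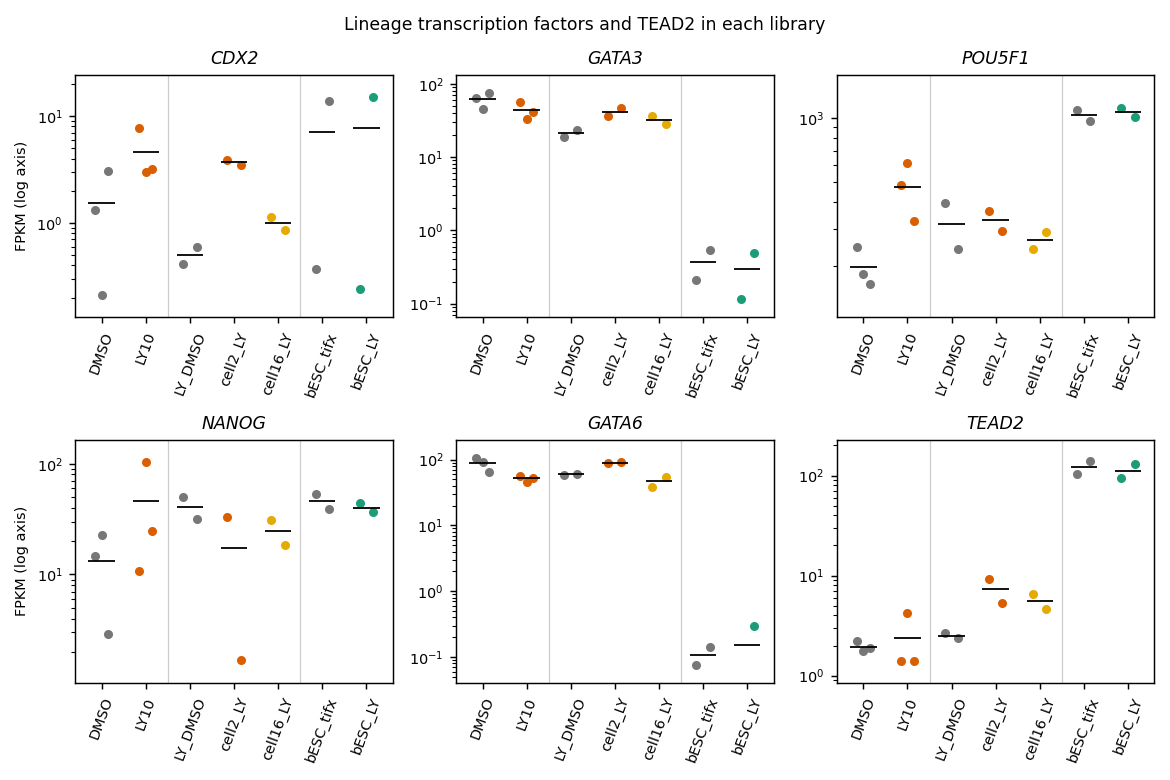
Levels in FPKM on log axes of CDX2, GATA3, POU5F1, NANOG, GATA6 and TEAD2, with 1 point per library, a bar at the group mean and gray lines between the 3 tables; bESC_LY replicate 2, at 0 for GATA6, is not drawn. CDX2 stands at 3.87 and 3.49 FPKM in cell2_LY against 0.410 and 0.591 FPKM in LY_DMSO, and in bESCs it splits the libraries numbered 2 from those numbered 3 in both groups.

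In bESCs, LY changed none of the 10 genes past the threshold, where 0.0749% of the 16012 genes tested passed. The count at an unadjusted p under 0.05 was 0 with limma and with voom, beside 0.0999% of all genes with limma. The 10 log2 fold changes lay between -0.17 and 0.12, with a median of 0.01 and 95% intervals that reached from -1.18 to 1.17. The fit did not pair libraries of the same number, which deviated together with a correlation of 0.789. These intervals therefore include the difference between numbers described below, beside the uncertainty of the LY change. YAP1 was at 59.8 and 73.8 FPKM in bESC_tifx and 48.6 and 72.0 FPKM in bESC_LY, TEAD3 at 19.6 and 17.9 FPKM and 19.1 and 18.8 FPKM, and LATS1 at 8.38 and 11.2 FPKM and 8.22 and 10.7 FPKM. NF2, at 21.0 and 21.0 FPKM and 21.5 and 22.9 FPKM, was the member without overlap, as were 14.2% of all genes tested. WWTR1 (11.7 and 8.39 FPKM against 11.8 and 9.54), TEAD1 (2.82 and 4.45 against 2.89 and 5.12), TEAD4 (3.39 and 2.71 against 3.30 and 2.79), LATS2 (3.84 and 4.13 against 3.37 and 3.86), AMOT (7.18 and 5.18 against 6.80 and 5.82) and AMOTL2 (8.49 and 15.9 against 8.50 and 15.0) overlapped.

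Within bESCs, the libraries numbered 2 and those numbered 3 stood apart for some genes. AMOTL2 was at 8.49 and 8.50 FPKM in the libraries numbered 2 and at 15.9 and 15.0 FPKM in those numbered 3, and TEAD1 at 2.82 and 2.89 against 4.45 and 5.12 FPKM. CDX2 split in the same way, at 0.368 and 0.243 against 13.7 and 15.2 FPKM, while the summed trophectoderm markers were at 450 and 397 FPKM in the number 2 libraries and 153 and 139 FPKM in the number 3 libraries. The labels do not say what the numbers stand for, and these values were not tested. bESC and blastocyst levels come from different annotations, library kits and normalizations, so they were set side by side without a test. The fibroblast markers summed to between 72.0 and 74.6 FPKM in bESC_tifx and to 72.3 FPKM in bESC_LY. The part of feeder cells in the bESC levels was not tested. TEAD2, at between 94.6 and 139 FPKM in bESCs, was above YAP1 there. The order in bESC_tifx by mean was YAP1 (66.8 FPKM), NF2 (21.0), TEAD3 (18.7), AMOTL2 (12.2), WWTR1 (10.0), LATS1 (9.78), AMOT (6.18), LATS2 (3.98), TEAD1 (3.64) and TEAD4 (3.05), in which AMOTL2, WWTR1 and LATS1 overlapped with their neighbors, as did LATS2, TEAD1 and TEAD4. No gene of the lists reported here was called in bESCs.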

How the data were processed

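Single-blastocyst SMART-seq and bESC RNA-seq were deposited as 3 tables of FPKM values. Per the labels and methods, the authors trimmed reads, aligned them with HISAT2 2.0.5 (STAR is also named), counted them with featureCounts 1.5.0-p3 and compared groups with DESeq2 1.20.0. The genome build is not given in the sources used here. The authors' fold change and p columns were not used. FPKM multiplied by the deposited gene length gave whole reads for 100.0% of values (within 0.02 reads), and thereby each library size used for scaling. These reads were rescaled to the geometric mean library size of each table (normalized count), so 3 reads, the limit for a count of 0, equal 2.01 to 4.09 normalized counts. Tables carry no molecular identifiers, so PCR-amplified reads are not independent molecules, and such limits cover counting error only.

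All genes whose mean reached 10 normalized counts were fitted with limma 3.58.1 (R 4.3.3, lmFit, eBayes with trend) on log2(normalized count + 1), two-sided. The authors' count tool, DESeq2, was not run on the recovered reads, and limma was used in its place. Voom, among the alternatives below, was fitted to those reads. The second blastocyst table had 1 fit over its 3 groups. Called means an unadjusted p under 0.05 with an absolute log2 fold change above 1, the study's threshold, and Benjamini-Hochberg adjusted p-values run over all genes tested. Nothing states that replicates came from separate cultures or fertilizations, so p-values measure the spread between these libraries. The 10 genes and the lists were chosen with earlier results of these data known. Beside the members, CDX2, GATA3, POU5F1, NANOG, SOX2 and GATA6 were named, and of each list the called genes, at most the 3 smallest p per comparison with a mean of at least 50; SOX2 in bESCs was not analysed here. The lists reported cover effectors, kinase cassette, angiomotin and junction, targets, trophectoderm, epiblast, hypoblast, cumulus and fibroblast genes; 1 further list is not reported here. Alternatives were a pseudocount of 5, no minimum, log2(FPKM + 1), quantile normalization, scaling by reads on genes, voom, a fit of only 2 groups, the replicate number as a block and each library left out. Scripts were tested on simulated data. No sequences were used. Software beside R was Python 3.11.15, pandas 2.3.3 and matplotlib 3.10.9.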

Additional observations from a re-analysis of the deposited data

Results flagged for a closer look

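Some differences between groups under the same inhibitor had an unadjusted p under 0.05 in a test of the difference itself. The LY change of TEAD3 from the 2-cell stage was larger in the second than in the first experiment by 0.97 on the log2 scale (limma, unadjusted p = 0.0285, adjusted p = 0.159), with both LY embryos above both controls in the second experiment and overlap in the first. This difference missed the fold threshold, and TEAD3 was 1 of 10 members at that p, where 23.4% of all genes were. Between exposure from the 16-cell and from the 2-cell stage, the difference was -1.33 for TEAD1, -1.17 for TEAD3 and -1.10 for LATS2 on the log2 scale (limma, adjusted p = 0.193, 0.193 and 0.227), each lower in 2 of 2 cell16_LY embryos than in both cell2_LY embryos. The same cell2_LY embryos gave the changes of TEAD3 and LATS2 against LY_DMSO, so these differences are not independent of those changes. TEAD1 did not pass without cell2_LY replicate 1, TEAD3 without cell16_LY replicate 2, and LATS2 without cell16_LY replicate 2 or either cell2_LY replicate. None of these passed after adjustment over all genes. The groups were too small for a search for single outlying embryos.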

How the results depend on the processing

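The count of called members was 0 of 10 for LY10, cell16_LY, bESC_LY and the joint fit under each setting that kept all libraries. On log2(FPKM + 1) it was 1 in place of 3 for cell2_LY and 1 in place of 3 for cell16_LY against cell2_LY. With 1 library left out, the count ranged from 0 to 2 for LY10, from 2 to 3 for cell2_LY, from 1 to 4 for cell16_LY against cell2_LY and from 0 to 1 for the joint fit, and was 0 for cell16_LY and bESC_LY. In the second blastocyst table and in bESCs such a fit leaves 1 library in a group, which is assumed to vary like the other groups. With the replicate block, the counts were 0 (LY10), 3 (cell2_LY), 0 (cell16_LY), 3 (cell16_LY against cell2_LY) and 0 (bESC_LY). Under this setting CDX2 in LY10 (limma, unadjusted p = 0.0348) and NANOG in cell2_LY, as lower (0.0102), newly passed. NANOG also newly passed in LY10, in the opposite direction, with a log2 fold change of 1.60. Same-numbered libraries deviated together with correlations of -0.117, 0.168 and -0.100 in the first table, 0.121, -0.232 and -0.133 for the group pairs of the second and 0.789 in bESCs. With 2 libraries per group, both numbers give the same value. Low correlations between single embryos cannot show whether embryos of the same number shared an origin or a run. Among the changes of members with an unadjusted p under 0.15, 180 alternative values kept their side of the threshold, 6 newly passed, 7 no longer passed and 0 turned direction; with a library left out these were 135, 18, 9 and 0. LATS1 in cell2_LY no longer passed on log2(FPKM + 1) (-0.82) or scaled by reads on genes (-0.88), and LATS2 in cell2_LY not on log2(FPKM + 1) (0.63) or after quantile normalization (0.89). The causes were not tested. A covariate for Y reads, chosen after seeing the data, left every count of called members as it was.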

Other observations

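Hypoblast genes, outside the pathway, went both ways in the first experiment: of 9 tested, 5 had a log2 fold change above 0 and 4 below, with 3 called higher and LAMB1 called lower at -1.07, while GATA6 stood at -0.73 (limma, unadjusted p = 0.0150). PDGFRA was at 2.36, 0.526 and 4.26 FPKM in DMSO and 10.6, 47.1 and 26.0 FPKM in LY10 (log2 fold change 3.74 ± 0.76, SE, limma, adjusted p = 0.0783), and HNF4A at 0.951, 0.168 and 0.393 FPKM in DMSO and 2.99, 5.68 and 4.27 FPKM in LY10 (3.31 ± 0.61, SE, limma, adjusted p = 0.0783). In the second experiment PDGFRA was at 58.2 and 18.3 FPKM in LY_DMSO and 14.6 and 4.51 FPKM in cell2_LY, a fall that lost the call without LY_DMSO replicate 1 or cell2_LY replicate 2. GATA6 was lower in both cell16_LY embryos, at 38.2 and 54.8 FPKM, than in both cell2_LY embryos, by -0.98 ± 0.26 on the log2 scale (SE, limma, unadjusted p = 0.00547, adjusted p = 0.193).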
